A study of Homo sapiens with 6 samples.

Results

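The genes described here encode 8 chaperones and disulfide isomerases of the endoplasmic reticulum (ER), namely PDIA6, PDIA3, PDIA4, P4HB, HSPA5, HSP90B1, CALR and CANX, out of 60708 genes counted in every library. They were listed by name, and PDIA6 was chosen by its count in the AGO2 pull-down of mimic-transfected cells, which lay above the flow-through, so its value in that comparison is a description and carries no test. The data are Ago-RIP-seq libraries, in which RNA bound to the protein AGO2 is pulled down with an antibody and sequenced. MDA-MB-231 cells, an established triple-negative breast cancer line, were transfected with 25 nM of miR-99b-5p mimic or of a scrambled control and harvested after 18 hours. The 6 libraries were 2 AGO2-IP and 2 flow-through (FT) libraries of mimic cells and 1 AGO2-IP and 1 flow-through library of control cells, where the flow-through is the RNA that the pull-down left behind. The sample labels give the fraction of each control library, while a supplementary list of the study calls both control replicates and names no fraction. Every group is the same cell line under transient transfection, and no IgG pull-down was analysed here.

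Proteins that enter the ER are folded there by chaperones, which hold unfolded chains, and by protein disulfide isomerases, which form and rearrange bonds between cysteines. HSPA5 (BiP) and HSP90B1 (GRP94) are the Hsp70 and Hsp90 chaperones of this compartment, and CANX and CALR are lectins that hold newly made glycoproteins together with the isomerase PDIA3. When unfolded proteins accumulate, ER stress sensors raise transcription of many of these genes. AGO2 is the protein that carries a microRNA to its target transcripts, which it recognises mainly by pairing with the seed at bases 2 to 8 of the microRNA.

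The sequence of miR-99b-5p (RefSeq, GRCh38.p14, plus strand of chromosome 19 from 51692618 to 51692639) is shown because its seed, in capitals, fixes the letters to look for in the 8 transcripts. It is followed by the 2 places in their Ensembl canonical transcripts that hold ACGGGT, the 6 bases that pair with bases 2 to 7, with 10 bases on each side.
miR-99b-5p: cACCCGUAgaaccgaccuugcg
CALR: ctggacggagACGGGTggacttcccg
CANX: aaaccccaaaACGGGTatctatgaag

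Both places lie in coding sequence, at transcript positions 163 to 168 of CALR (ENST00000316448.10) and 770 to 775 of CANX (ENST00000247461.9), and the CANX place continues with an A, which makes it a 7-base match. None of the 8 genes held ACGGGT in the 3′ untranslated region of its canonical transcript. Over 19942 canonical transcripts of protein-coding genes, 14.9% held it anywhere and 5.61% in that region. In all annotated transcripts (GENCODE 44) of PDIA6, PDIA3, PDIA4 and HSP90B1 these letters were absent, including the 8 transcripts of PDIA6. They were present in 2 of 72 transcripts of P4HB, 3 of 15 of HSPA5, 7 of 8 of CALR and 45 of 47 of CANX. A match is a run of letters and not a measured binding site.

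Promoters were searched on both strands for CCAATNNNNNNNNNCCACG, the 19-base ER stress element, in 300-base windows (250 bases before to 50 after each RefSeq start). The genes were listed by name as ER chaperones and isomerases, many of them raised under ER stress. A match to this element is thus not independent of their choice, and the counts are a description. The sites found are shown with the fixed letters in capitals.
PDIA6: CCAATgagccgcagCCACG
HSPA5: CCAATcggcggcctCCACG
HSP90B1, first site: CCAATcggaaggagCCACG
HSP90B1, other site: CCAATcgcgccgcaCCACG
CALR: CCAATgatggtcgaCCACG
CANX: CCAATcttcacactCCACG

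They lie, in GRCh38.p14, at chr2:10812853-10812871 for PDIA6, chr9:125241391-125241409 for HSPA5, chr12:103930216-103930234 and chr12:103930321-103930339 for HSP90B1, chr19:12938384-12938402 for CALR and chr5:179698778-179698796 for CANX. PDIA6 and HSPA5 are on the minus strand and the other 3 on the plus strand. The sites of PDIA6, HSPA5 and CANX and the first of HSP90B1 read along the gene's own strand, and the other site of HSP90B1 and that of CALR read on the opposite strand. The CANX site falls in 3 overlapping windows of that gene. Of 7 genes with an entry, 5 held the element, in 7 of their 12 windows, against 25 of all 27305 genes (0.0916%) and 27 of 35116 windows (0.0769%), these included. P4HB and PDIA4 had windows without these letters, and PDIA3 was not matched. In 9 lists of related genes the element was found in ERO1B, CRELD2 and XBP1.

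The libraries differed in ways that touch every comparison with control. Counts on genes ran from 7772149 to 48544756, with the 2 control libraries the shallowest. Of their read pairs, 92.3% and 95.0% were not assigned to a gene, against 21.4% to 47.2% in mimic libraries. Pairs mapped to more than 1 place made up 73.7% of control flow-through and 76.7% of control AGO2-IP, against 2.38% to 19.2% of mimic libraries. In the control flow-through 43.4% of the gene counts lay on mitochondrially encoded genes, against at most 3.48% elsewhere. The log2 differences between replicates had an SD across genes of 0.84 in mimic AGO2-IP and 1.44 in mimic flow-through, and the latter followed transcript GC content (Spearman's rho across 11747 genes = -0.75 for replicate 1 minus replicate 2, genes not being independent). Of the line's markers, VIM, CD44, AXL, CAV1, MSN and KRT18 had a CPM (count scaled by the library's total over genes) of 59.0 or more in every library, and of 6 genes usually low or absent in it, ESR1, PGR and CDH1 had 3.96 or less, GRB7 1.20 to 7.72, EPCAM 2.80 to 11.8 and ERBB2 37.7 to 172, which reaches into the range of the markers above. Among markers of other cell types, PTPRC, HBB, COL3A1 and ALB had 3.71 or less, PECAM1 0.515 to 8.47 and COL1A1 4.63 to 44.1.

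PDIA6 (ENSG00000143870.13, chromosome 2, 10783391 to 10837977, minus strand) encodes an isomerase that works with BiP. Mimic AGO2-IP held 15341 and 11541 of its read pairs. The counts were 1620 and 1433 in mimic flow-through, 8119 in control AGO2-IP and 693 in control flow-through. Over all gene counts this was 328 and 304 CPM in mimic AGO2-IP against 34.5 and 29.5 CPM in mimic flow-through, and 1005 against 89.2 CPM in control. In both treatments AGO2-IP was well above flow-through, and each fraction was lower in mimic than in control. The mimic AGO2-IP over flow-through log2 fold change was 3.26 (SE 0.63, 2 against 2 libraries), or 9.60-fold, and the 4 differences between single libraries ran from 3.11 to 3.43. In the control pair, which are other libraries than those on which PDIA6 was chosen, the log2 ratio of TMM-normalised CPM was 2.60 (95% counting interval 2.49 to 2.71), or 6.06-fold. PDIA6 held place 78 of 13078 genes from the top in mimic cells and place 70 of 8245 in control cells. The ratio of control cells has no replicate check, and across 11 settings it ran from 2.46 to 3.505.

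**Figure D1:**
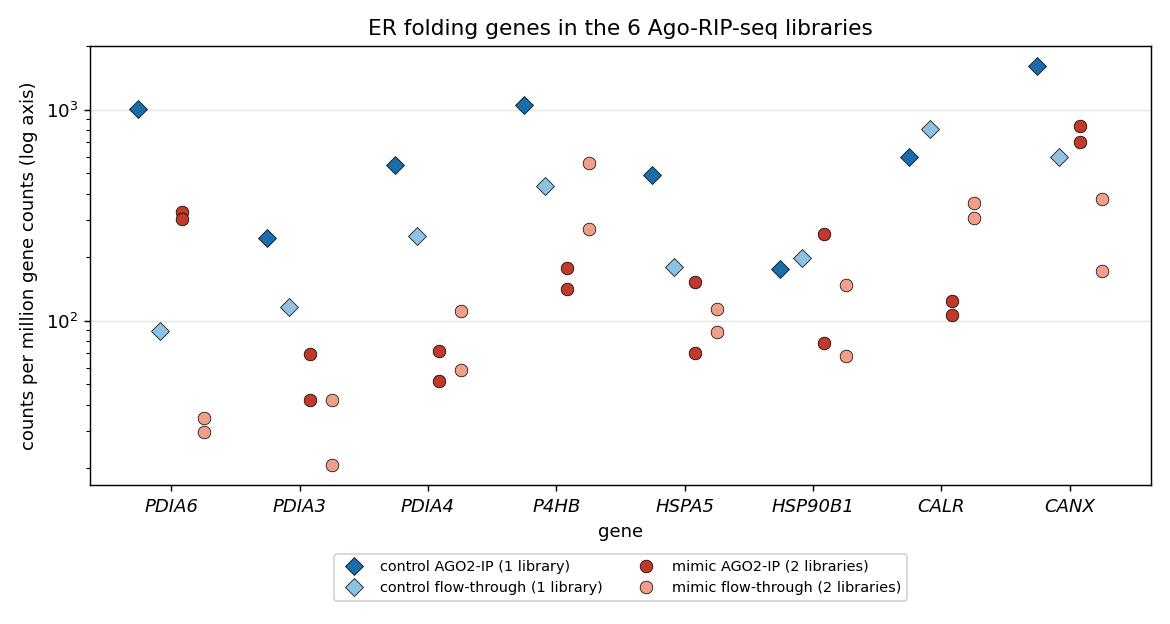
CPM over all gene counts (log axis) of the 8 ER folding genes in each of the 6 libraries. Circles are the mimic libraries and diamonds the single control libraries, with AGO2-IP in dark and flow-through in light colour. PDIA6 shows AGO2-IP far above flow-through in both treatments, while CALR lies lower in AGO2-IP than in flow-through in both.

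The other isomerases did not share the position of PDIA6. PDIA3 (ERp57), which acts on glycoproteins held by CANX and CALR, was counted 3261 and 1608 times in mimic AGO2-IP, 1983 and 1002 in mimic flow-through, 1996 in control AGO2-IP and 900 in control flow-through. On TMM-normalised CPM both mimic AGO2-IP libraries lay above both flow-through libraries, by 0.24 to 1.44 on the log2 scale. In replicate 2 of mimic flow-through, 59.3% of the PDIA3 pairs overlapped a gene on the opposite strand. Those pairs were left out of these counts, so the separation rests on the pairs that were kept. The log2 fold change was 0.85 (SE 0.62, adjusted p = 0.413 edgeR's quasi-likelihood test, Benjamini-Hochberg over all genes tested, as for each adjusted p below unless DESeq2 is named).

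PDIA4 (ERp72), an isomerase with more than the usual number of catalytic domains, was counted 2408 and 2746 times in mimic AGO2-IP against 2730 and 5400 in mimic flow-through, and 4428 against 1967 in control. Its mimic groups overlapped on TMM-normalised CPM, with differences between single libraries from -1.43 to 0.55 and a log2 fold change of -0.58 (SE 0.66, adjusted p = 0.612). P4HB (PDI), the founding isomerase and also a subunit of collagen prolyl 4-hydroxylase, was counted 8297 and 5392 times in mimic AGO2-IP, 12784 and 27294 in mimic flow-through, 8523 in control AGO2-IP and 3367 in control flow-through. Both AGO2-IP libraries lay below both flow-through libraries in mimic cells, and the flow-through libraries themselves stood 1.54 apart on the log2 scale. The P4HB log2 fold change of -1.53 (SE 0.66) had an unadjusted p of 0.0414 and an adjusted p of 0.193 by edgeR, so it did not pass. With each library's GC trend removed it was -0.69.

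HSPA5, which binds exposed hydrophobic stretches of unfolded chains, was counted 7151 and 2674 times in mimic AGO2-IP, 4145 and 5519 in mimic flow-through, 3975 in control AGO2-IP and 1395 in control flow-through. The mimic groups overlapped, and the AGO2-IP replicates differed from each other by 1.06 on the log2 scale. The log2 fold change was 0.05 (SE 0.64, adjusted p = 0.971), with differences between single libraries from -0.95 to 0.97. HSP90B1, which folds integrins and Toll-like receptors among other clients, was counted 12098 and 2975 times in mimic AGO2-IP, 6919 and 3296 in mimic flow-through, 1424 in control AGO2-IP and 1542 in control flow-through. Replicate 1 of mimic AGO2-IP was the highest library and the groups overlapped, with a log2 fold change of 0.67 (SE 0.68, adjusted p = 0.570) that was -0.41 without that library and 0.01 with the GC trend removed.

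CANX, the membrane-bound lectin chaperone, was counted 39059 and 26695 times in mimic AGO2-IP, 17682 and 8368 in mimic flow-through, 13035 in control AGO2-IP and 4657 in control flow-through. Both mimic AGO2-IP libraries lay above both flow-through libraries, by 1.14 to 1.96 on the log2 scale. The CANX log2 fold change was 1.52 (SE 0.59) with an unadjusted p of 0.0255 and an adjusted p of 0.159 by edgeR, and it was 0.73 with the GC trend removed. CALR, its soluble relative, which also stores calcium, was counted 5790 and 4054 times in mimic AGO2-IP, 17008 and 14948 in mimic flow-through, 4836 in control AGO2-IP and 6299 in control flow-through. Its replicates were close in both fractions, and AGO2-IP lay below flow-through in every mimic pair, by 1.37 to 1.78 on the log2 scale. The CALR log2 fold change was -1.58 (SE 0.58, unadjusted p = 0.0202, adjusted p = 0.146 by edgeR), and DESeq2 called it (-1.59, adjusted p = 0.0475), as did edgeR with the replicate block and the GC trend removed (-1.20, adjusted p = 0.0251). These lectins, the 2 genes with ACGGGT in their canonical transcript, had fold changes of opposite sign. Neither passed in the main edgeR fit, and a link between the match and the fold change was not tested.

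Over the 7 genes other than PDIA6, edgeR called none enriched and none depleted, where 0.245% of 13078 genes were called enriched and 0.413% depleted. At an unadjusted p under 0.05 there were 1 higher (CANX) and 2 lower (P4HB and CALR), where 10.6% and 13.1% of all genes were, and DESeq2 called 1 (CALR), where it called 6.74% of all genes enriched and 8.50% depleted. Both AGO2-IP libraries were above both flow-through libraries for 2 of these 7 genes (PDIA3 and CANX), a pattern of 28.1% of all genes, and below them for 2 (P4HB and CALR), a pattern of 28.5%, so neither share stands apart from the background. Without replicate 1 of the mimic flow-through, which leaves 1 library in that group, the log2 fold change was -2.15 for P4HB, -1.75 for CALR and 1.83 for CANX.

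**Figure D2:**
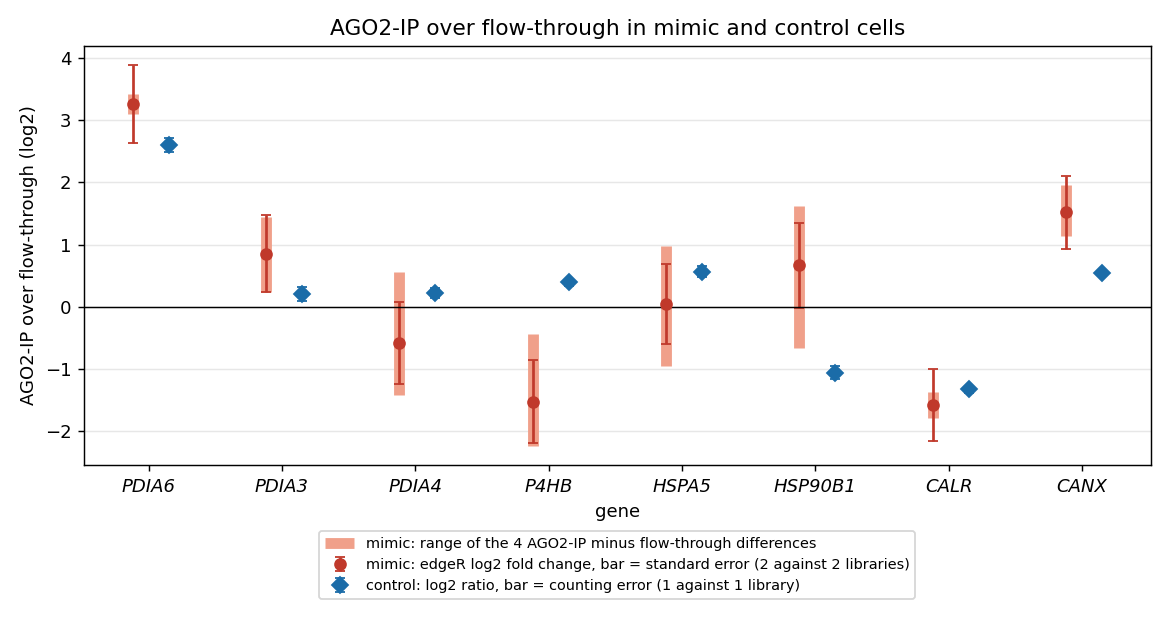
AGO2-IP over flow-through on the log2 scale for the 8 genes. Red points are the edgeR log2 fold change in mimic cells with its standard error, light bars the range of the 4 differences between single mimic libraries, and blue diamonds the control log2 ratio with its 95% counting error. PDIA6 lies at 3.26 in mimic and 2.60 in control cells, CALR is below 0 in both, and P4HB is at -1.53 in mimic and 0.39 in control cells.

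In control cells, where 1 library stands for each fraction and no test was made, the log2 ratio of AGO2-IP over flow-through was 0.20 for PDIA3, 0.22 for PDIA4, 0.39 for P4HB, 0.56 for HSPA5 and 0.54 for CANX. It was -1.06 for HSP90B1 and -1.33 for CALR. Of the 8 genes, PDIA6 alone was at 1 or more (15.9% of 8245 genes were) and HSP90B1 and CALR were at -1 or less (18.1% were). Scaling by library size alone, which keeps the mitochondrial counts in the total, raised all of these ratios, so that 6 of the 8 genes were at 1 or more and none at -1 or less.

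The mean of the mimic libraries lay below the control library for all 8 genes in both fractions. In AGO2-IP the log2 ratio of mimic over control was -3.03 for PDIA4, -2.60 for P4HB, -2.25 for CALR, -2.11 for HSPA5, -2.05 for PDIA3, -1.54 for PDIA6, -0.94 for CANX and -0.18 for HSP90B1. Each mimic replicate on its own gave a value below 0 for every gene but HSP90B1, whose replicates were at 0.66 and -1.01. PDIA6 was thus 2.90-fold lower in mimic than in control AGO2-IP, at place 10513 of 11467 genes from the top, although it was chosen by its count in the mimic pull-down. In flow-through the log2 ratio was -2.44 for PDIA3, -2.12 for PDIA4, -1.95 for PDIA6, -1.75 for CALR, -1.70 for CANX, -1.46 for HSP90B1, -1.31 for HSPA5 and -0.62 for P4HB. There each replicate was below 0 for every gene but P4HB, whose replicates were at -1.40 and 0.17.

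The ratio was at -1 or less for 6 of the 8 genes in AGO2-IP, where 17.4% of 11467 genes were, and for 7 of 8 in flow-through, where 10.2% of 12254 genes were. In both fractions it was at -1 or less for 5 of 8 (PDIA6, PDIA3, PDIA4, HSPA5 and CALR), where 5.13% of 11234 genes were, and below 0 for 8 of 8, where 25.7% were. The 8 genes together took 0.574% of the gene counts of control AGO2-IP (95% Wilson interval 0.568% to 0.579%) and 0.268% of control flow-through, against 0.200% and 0.152% in mimic AGO2-IP and 0.138% and 0.139% in mimic flow-through. Over 13 settings, at least 7 of the 8 were below 0 in each fraction, and their median ran from -2.38 to -1.48 in AGO2-IP and from -2.08 to -1.26 in flow-through, where that of all genes ran from -0.16 to 0.22 and from -0.30 to 0.52. Each ratio rests on 1 control library of low gene counts, and the part of that library's makeup in these ratios was not tested. In bulk lysates, fewer cells with a transcript and less of it per cell cannot be told apart.

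**Figure D3:**
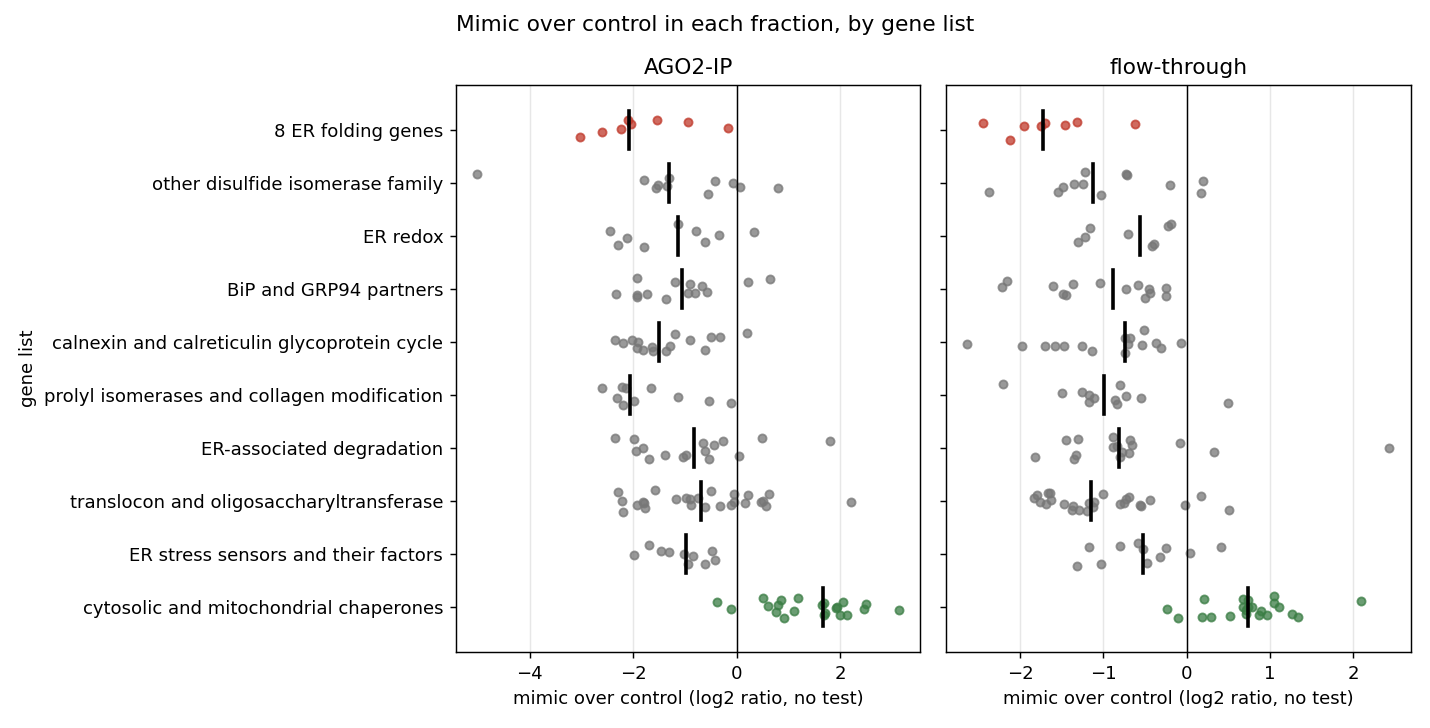
Mimic over control log2 ratio (no test, 1 control library per fraction) of each measured gene in the 8 ER folding genes and 9 related lists, in AGO2-IP and in flow-through. Each point is a gene and the black bar the median of its list. The median is below 0 for the 8 genes and for every other ER list in both fractions, and above 0 for the cytosolic and mitochondrial chaperones.

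The same direction was seen across genes of the ER that are not among the 8. Of 112 measured genes of 8 related ER lists, 96 had a mimic over control log2 ratio below 0 in AGO2-IP (median -1.08, 58 at -1 or less), and of 115 in flow-through, 106 did (median -0.84, 54 at -1 or less). Over all genes the medians were 0.02 in AGO2-IP and 0.05 in flow-through. Of all genes, 49.2% and 47.3% were below 0, and 17.4% and 10.2% were at -1 or less. In AGO2-IP the median was lowest for prolyl isomerases and collagen-modifying enzymes (-2.06), then for the calnexin and calreticulin glycoprotein cycle (-1.50), other disulfide isomerase family members (-1.30), ER redox enzymes (-1.13), BiP and GRP94 partners (-1.06), ER stress sensors and their factors (-0.98), ER-associated degradation (-0.82) and the translocon and oligosaccharyltransferase (-0.68). In flow-through these medians lay between -1.15, for the translocon and oligosaccharyltransferase, and -0.52, for the stress sensors. Low ratios were not limited to ER genes. Of the 6 markers of the line, 3 were at -1 or less in AGO2-IP (AXL -2.19, CD44 -2.02 and CAV1 -1.07). In flow-through 2 were (CD44 -1.77 and CAV1 -1.33). MSN was at 1 or more in both fractions (1.52 and 1.53).

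Most chaperones of the cytosol and mitochondria lay on the other side of control. Their median mimic over control log2 ratio was 1.66 in AGO2-IP and 0.73 in flow-through over 22 genes, with 2 below 0 in each fraction. In AGO2-IP 14 were at 1 or more, where 17.3% of all genes were, and none at -1 or less. In flow-through 6 were at 1 or more, where 1228 of 12254 genes were, and none at -1 or less. Over the 13 settings the median of this list stayed between 1.06 and 2.25 in AGO2-IP and between 0.38 and 1.20 in flow-through. HSPD1, the mitochondrial Hsp60, was at 2.46 and 0.71. In mimic AGO2-IP over flow-through HSPD1 was enriched, with counts of 104375 and 162860 against 11499 and 8845 and a log2 fold change of 3.92 (SE 0.67, adjusted p = 0.0383 by edgeR), and 19 of the 22 genes had both AGO2-IP libraries above both flow-through libraries, as 28.1% of all genes did. With the replicate number as a block 6 of the 22 were enriched (4.60% of all genes), and by DESeq2 10 (6.74%), with none depleted by either. HSPE1, its cochaperonin, had the lowest value of the list (-1.11, adjusted p = 0.488).

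In mimic AGO2-IP over flow-through the 8 ER lists had a median log2 fold change of -0.04 (116 tested genes), against -0.11 over all genes. Of the 116, edgeR called none enriched and 1 depleted, where 0.245% and 0.413% of all genes were. At an unadjusted p under 0.05, 6 were higher and 14 lower (10.6% and 13.1% of all genes were), and DESeq2 called 6 and 5 (6.74% and 8.50% of all genes). The depleted gene was OST4, a small subunit of oligosaccharyltransferase, counted 162 and 194 times in AGO2-IP against 4474 and 2179 in flow-through (-3.99, SE 0.71, adjusted p = 0.0383), and 39 against 373 times in control. Its 2 fractions were thus far apart in the same direction in both treatments.

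The highest gene of the same list was SEC11A, a catalytic subunit of signal peptidase, counted 15567 and 7004 times against 1555 and 455 (log2 fold change 3.68, adjusted p = 0.0501), which stood just outside the threshold. Among partners of BiP and GRP94 the extremes were DNAJB11, a BiP cochaperone (2.93, adjusted p = 0.0617), and CNPY3, a GRP94 cochaperone (-1.07, adjusted p = 0.319). Among redox enzymes they were ERO1A, the oxidase that recharges PDI (2.14, adjusted p = 0.0880), and the peroxiredoxin PRDX4 (-2.26, adjusted p = 0.137). DESeq2 called both ERO1A (adjusted p = 0.00613) and PRDX4 (adjusted p = 0.0335). It also called SEC11A (adjusted p = 7.81e-06) and DNAJB11 (adjusted p = 0.000337). For degradation the highest was DERL1, a retrotranslocation channel subunit (2.04, adjusted p = 0.118), which DESeq2 called (adjusted p = 0.0215). With the replicate number as a block, 6 genes of the 8 lists were enriched and 3 depleted, where 4.60% and 5.08% of all genes were, with SEC11A at 3.78 (adjusted p = 0.000274), DNAJB11 at 2.82 (0.00872), ERO1A at 2.14 (0.0361) and DERL1 at 2.19 (0.0481) among them.

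The remaining extremes did not pass in edgeR without the block. In the disulfide isomerase family they were the membrane isomerase TMX3 (1.36, adjusted p = 0.312) and AGR2, which helps fold mucins (-3.64, adjusted p = 0.136), the latter counted only 14 and 1 times in AGO2-IP, and AGR2 passed with the block (-3.69, adjusted p = 0.00729). In the glycoprotein cycle list they were the calcium-binding proteins RCN2 (1.37, adjusted p = 0.212) and SDF4 (-2.23, adjusted p = 0.115). DESeq2, which had no block, called SDF4 (adjusted p = 0.0186). PLOD2, a collagen lysyl hydroxylase, was at 0.88 (adjusted p = 0.386) and the prolyl isomerase FKBP11 at -2.01 (adjusted p = 0.184). Of the stress genes, the sensor kinase EIF2AK3 (PERK) was at 0.94 (adjusted p = 0.427) and DDIT3 (CHOP), a factor induced under prolonged stress, at -1.99 (adjusted p = 0.177).

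Levels of the 8 genes can be set against each other only per length. In counts per kilobase of merged exons, scaled to one common total in each library, PDIA6 was the highest of the 8 in all 3 AGO2-IP libraries, at 375 in each mimic replicate and 919 in control. In mimic AGO2-IP CANX followed at 284 and 258, then CALR at 207 and 193, and PDIA3 was lowest at 27.8 and 18.2. The ranges of these 4 genes over the 2 replicates did not overlap. Those of HSPA5 (110 and 54.5), HSP90B1 (92.6 and 30.2), P4HB (74.7 and 64.5) and PDIA4 (73.2 and 111) did, so their order is not resolved. In flow-through CALR was highest in every library, at 207 and 103 in mimic and 440 in control, and PDIA6 was at 13.5 and 6.78 in mimic and 33.1 in control. Annotated retained introns lengthen the merged exons of some of these genes. Per kilobase of the canonical transcript, CANX (473 and 430) stood above PDIA6 (401 in each) in mimic AGO2-IP. There P4HB (203 and 175) stood above CALR (181 and 169) in each replicate, HSP90B1 was at 259 and 84.7, and PDIA4 (51.8 and 78.6) was lower than PDIA3 (52.8 and 34.6) in replicate 1, so the places of CALR and PDIA3 depend on the length used. On this scale P4HB (193) also stood above CALR (136) in replicate 2 of mimic flow-through. These levels rest on unstranded counts, which left out 38.2% and 31.6% of the PDIA6 pairs in mimic AGO2-IP. For CANX the share left out there was at most 0.0051%. Whether CANX stands above PDIA6 per kilobase of the canonical transcript therefore also depends on the pairs left out.

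Part of the read pairs lying on 5 of the genes was left out of the unstranded counts. Pairs that overlap a gene on the opposite strand are set aside there but not in the strand-specific counts, and the share set aside was 30.2% to 38.2% for PDIA6 over the 6 libraries, 16.5% to 29.4% for P4HB, 11.8% to 18.6% for CALR, 7.44% to 27.0% for HSP90B1 and 19.3% to 59.3% for PDIA3. For PDIA4, HSPA5 and CANX it was at most 0.112%. PDIA6 overlaps the end of ATP6V1C2, which had 3 to 21 counts of its own in a library. HSP90B1 overlaps UQCC6, which had 308 to 634 counts in mimic libraries and 39 and 63 in control flow-through and AGO2-IP. From which gene the shared pairs came was not tested. For PDIA3 the share was 59.3% in replicate 2 of mimic flow-through and at most 25.6% in the other libraries, and with both strand columns added its log2 fold change went from 0.85 to 0.35, while that of PDIA6 was 3.20. Of the annotated copies of the 8 genes only the pseudogene PDIA3P1 reached 200 counts in all (428 over 6 libraries), and reads that fit a gene and a copy equally are not counted for either.

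**Figure D4:**
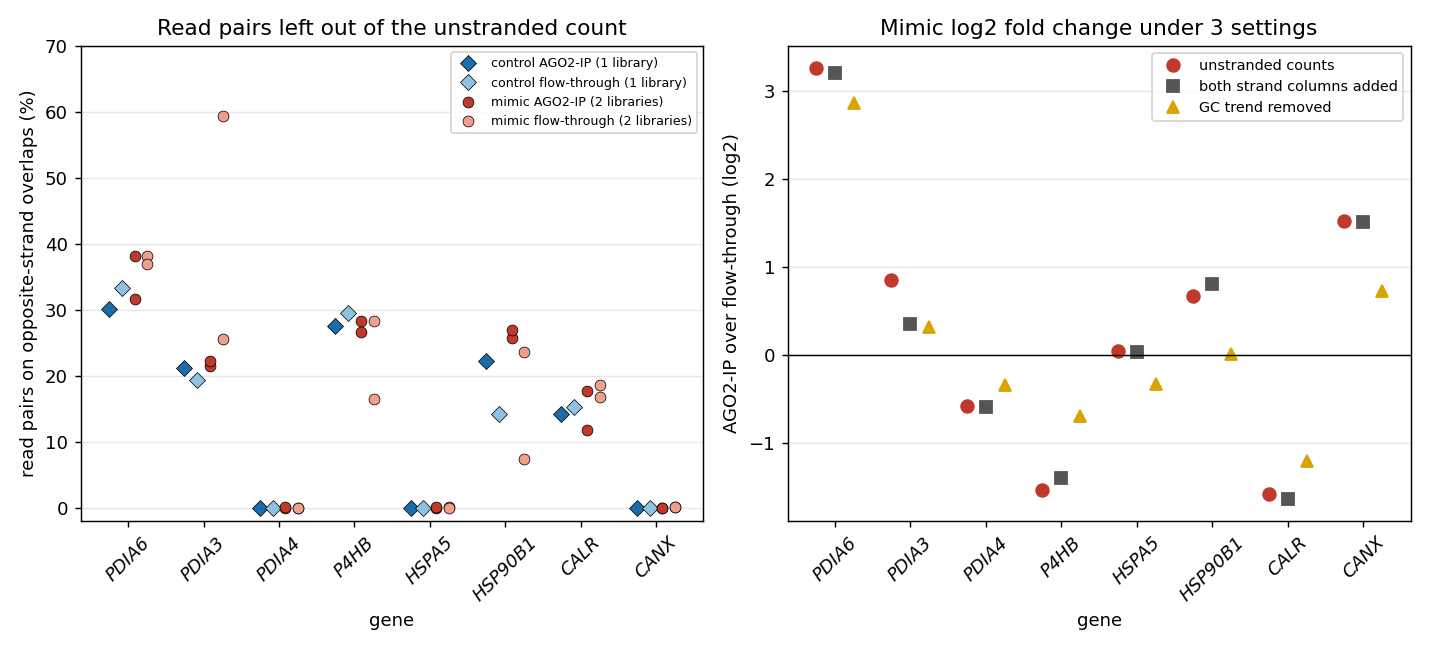
Left, share of the read pairs lying on each gene (%) that overlap a gene on the opposite strand and are left out of the unstranded count, by library. Right, mimic AGO2-IP over flow-through log2 fold change from the unstranded counts, from both strand columns added and with each library's GC trend removed. PDIA3 in one mimic flow-through library stands out at 59.3%, and its fold change falls from 0.85 to 0.35 when these pairs are kept.

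The pattern of PDIA6 over the 6 libraries was set against 11740 protein-coding genes outside the lists, by the root mean square difference of log2 CPM centred on each gene's mean. Among the 5 nearest were SLC18B1 (0.37), MFSD1 (0.44), ADAM9 (0.49) and TSPAN3 (0.54). Each of these 4 had a mimic AGO2-IP over flow-through log2 fold change between 2.49 and 3.10, a control log2 ratio between 1.93 and 3.18 and mimic over control ratios below 0 in both fractions. They were picked by their likeness to PDIA6 over these same libraries, so similar values follow from that choice. ADAM9 is a membrane metalloprotease, TSPAN3 a tetraspanin, and SLC18B1 and MFSD1 are membrane transporters. Among the 8 genes CANX came closest to PDIA6, at a difference of 0.98 and place 107, and CALR was farthest, at 2.28 and place 9550. These 6 points share libraries, depth and normalisation, and no test was made.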

How the data were processed

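The 6 libraries are grouped by their labels. The authors checked the reads with FastQC 0.11.9, trimmed them with Cutadapt 3.5 and aligned them to GRCh38 with STAR 2.7.11b. Which Ensembl release was used is not given in the sources used here. The deposited values are raw counts of read pairs per gene from STAR, without normalization, and the unstranded counts were used. Rows that name no gene (21.4% to 95.0% of pairs) stayed out of library totals and tests. Only pairs mapped to one place are counted, which lowers genes with near-identical copies. Of 60708 identifiers, 60463 matched GENCODE 44.

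Mimic AGO2-IP and flow-through were compared with edgeR 4.0.16 (R 4.3.3, quasi-likelihood test, TMM) over the 13078 genes that reached 200 counts summed over the 4 libraries. Calls needed a change of 1 or more on the log2 scale in either direction and an adjusted p (Benjamini-Hochberg) no higher than 0.05. DESeq2 1.42.0 was an alternative. The SE is the log2 fold change over the root of F. Comparisons with the single control libraries are log2 ratios of TMM-normalised CPM (prior count 2) over genes that reached 200 summed counts. Intervals are at 95% and cover counting error only, since reads carry no molecular identifiers. Labels give each mimic replicate an AGO2-IP and a flow-through, which does not state one lysate, and deviations of same-numbered libraries from group means correlated across genes (r = 0.324, rho = 0.236). The numbers were therefore taken to pair the libraries, but the main fit has no block, and a blocked fit is reported where it changes a call.

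The 8 genes and the lists were chosen with earlier results of these data known. Besides them, the text names the tested gene with the highest and the lowest fold change and every called gene of each list, copies with 200 counts or more, and the 5 genes nearest to PDIA6. Under this rule 2 genes are not reported here. The scripts were tested on simulated counts. Adding both strand columns and the canonical transcript length were alternatives chosen after seeing the data.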

Additional observations from a re-analysis of the deposited data

Results flagged for a closer look

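For 4 of the 21 named genes with a value in both treatments, all 4 differences between single mimic libraries had the opposite sign to the control log2 ratio of AGO2-IP over flow-through. The difference between treatments was not tested. Control has 1 library per fraction, and 953 of 8225 genes (11.6%) showed the same. P4HB was at -1.53 in mimic and 0.39 in control cells, and CNPY3 at -1.07 and 0.38. For both genes the control value stayed above 0 under every setting tried, from 0.27 upwards. TMX3 was at 1.36 in mimic and -0.27 in control cells, and PLOD2 at 0.88 and -0.02. The control values of TMX3 and PLOD2 were 0.63 and 0.89 with library size alone.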

How the results depend on the processing

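The control libraries limit the report most, since they hold few gene counts and 1 stands for each fraction. With TMM, edgeR called 32 genes enriched and 54 depleted in mimic AGO2-IP over flow-through, and these counts moved widely: 13 and 33 with DESeq2 size factors, 9 and 35 with library size alone, 419 and 204 without the count filter, 10 and 28 with strand column 3, 2 and 12 with strand column 4, 5 and 24 with both added, 430 and 301 with the GC trend removed, 173 and 259 after thinning, and 882 and 1112 by DESeq2. With the replicate block they were 601 and 664, and with the block and the GC trend removed 1834 and 1654. Leaving out 1 library gave 2 to 2476 enriched and 20 to 2527 depleted, the highest without mimic flow-through replicate 1. Of the 7 tested ER folding genes none was called enriched in the main comparison and up to 1 with a library left out (0 to 1), and none depleted, against 1 by DESeq2, 1 with the block and the GC trend removed, and 0 to 2 with a library left out. The block alone called none of the 7.

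The sign turned for PDIA4 (0.28 without mimic flow-through replicate 2, against -1.17 without replicate 1), for HSP90B1 (-0.20 with the block and the GC trend removed, -0.41 without mimic AGO2-IP replicate 1, against 1.24 without replicate 2) and for HSPA5, which was at -0.0041 and -0.040 with strand columns 3 and 4, -0.33 with the GC trend removed, -0.29 with the block too, -0.15 after thinning, -0.59 without AGO2-IP replicate 1 and -0.36 without flow-through replicate 1, up to 0.50 with another library left out and 0.52 without the count filter. None of these passed a test, and the cause was not tested. PDIA6 stayed between 2.86 and 3.68 under all settings run.

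For the control ratio, library size alone gave 3840 genes at 1 or more and 406 at -1 or less, with 6 and 0 of the 8 genes, and no filter gave 3854 and 3525. The number of the 8 genes at -1 or less was 1 in place of 2 without mitochondrial genes in the library size, without the filter, with strand column 3, with both strand columns and with the GC trend removed. For mimic over control in AGO2-IP, 1221 genes were at 1 or more with the GC trend removed, and 6652 and 8960 at 1 or more and -1 or less without a filter. In flow-through the counts were 3178 and 511 with library size alone, 539 and 2309 without mitochondrial genes, 7191 and 6741 without a filter, 744 at 1 or more after thinning, and 688 to 2176 and 1302 to 2182 with a mimic library left out.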
